A study of Homo sapiens with 8 samples.

Results

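The 10 members described here are genes of the methionine cycle and of its branches, with the AHCY relatives AHCYL1 and AHCYL2, to which no step is assigned here. They were followed on 8 one-colour Agilent arrays through every probe that the array files name for them: MAT1A, MAT2A, MAT2B, AHCY, AHCYL1, AHCYL2, MTR, MTRR, MTAP and CBS. The members have 20 of the 50599 probes that measure a transcript and are 10 of 36337 gene names. The arrays fall into 4 groups of 2. The Nthy-ori 3-1 line, follicular cells of a normal human thyroid that were immortalized, received either pre-miR-375, a precursor mimic that raises the miRNA, at 5 nM or a control. The TT line, derived from a medullary carcinoma of the thyroid, a tumour of the calcitonin-producing C cells, received either antagomiR-375, an antisense oligonucleotide that blocks the miRNA, at 20 nM or a control. All cells were collected at 48 h, and 0.2 µg of RNA was labelled per array. These doses are those of the labels, and the study's methods give higher final concentrations for both reagents. The labels call both controls CTL, so that the control reagents were inferred from the study's methods. Each line is 1 established line. The methods speak of biological replicates, while the labels do not say which arrays came from separate cultures, so that p-values are read as the spread between these arrays.

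The methionine cycle makes S-adenosylmethionine (SAM), the methyl donor of most cellular methylation reactions, and recovers methionine from what is left. Methionine adenosyltransferase forms SAM from methionine and ATP, its catalytic subunit being MAT1A in adult liver and MAT2A in most other tissues, and MAT2B is the regulatory subunit that binds the MAT2A enzyme. After methyl transfer, AHCY splits S-adenosylhomocysteine into adenosine and homocysteine, which MTR, kept active by MTRR, turns back into methionine, or which CBS draws into cysteine synthesis. MTAP returns methylthioadenosine, a by-product of polyamine synthesis, to the methionine pool.

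The miRNA that both reagents act on is shown with both MAT2B probes, which carry the largest differences after the mimic, and with MTAP probes 2 and 3, which disagreed in TT cells. In the mature miRNA (RefSeq, GRCh38.p14, chr2:219001648-219001669, minus strand) the capitals mark the seed, bases 2 to 8. The probes are printed as deposited, with their positions in build hg19 on the plus strand.
hsa-miR-375-3p: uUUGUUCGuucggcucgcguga
MAT2B probe 1, chr5:162945313-162945372: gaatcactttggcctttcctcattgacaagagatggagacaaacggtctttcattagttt
MAT2B probe 2, chr5:162939135-162939194: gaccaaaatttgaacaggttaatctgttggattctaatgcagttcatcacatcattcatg
MTAP probe 2, chr9:21837969-21854648: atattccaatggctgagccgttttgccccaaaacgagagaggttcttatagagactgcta
MTAP probe 3, chr9:21802766-21815476: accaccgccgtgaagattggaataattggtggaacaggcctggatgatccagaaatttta
The MAT2B probes start at positions 1085 and 327 of the same transcript and do not overlap. The MTAP probes 2 and 3 start at positions 522 and 131 of 1 transcript, and each spans 2 separated stretches of the genome. The complement of the seed, CGAACAA, lies in 0 of the 20 member probes on either strand, against 0.0613% of all 50599 probes in the sense direction and 0.0692% in the antisense direction, which says nothing about the rest of these transcripts.

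Signal allowed a level for 9 of the 10 members. Of the 20 member probes, 14 were well above background on all 8 arrays, 5 on some of them and 1 on none, and MAT1A was the member without a probe on all 8. The shares and medians over all probes that are given beside those of the members include dim probes. Between 32071 and 37340 of the 58717 non-control spots of an array were well above background and 0 of them were saturated. Within a line, the control and the treated array of the same replicate shared a slide, and each slide held 1 line. RNA of TT control cells had an integrity number of 8 and all other RNA one of 9. The lines were checked against marker genes. All 7 C cell and neuroendocrine genes were well above background on the 4 TT arrays, with CALCA (calcitonin) at a mean of 18.55 in TT against 3.74 in Nthy-ori 3-1 control cells on the log2 scale. Of 7 follicular genes, 4 were well above background on the 4 Nthy-ori 3-1 arrays, PAX8 and FOXE1 among them, whereas TSHR and NKX2-1 were so on none. The same list was not specific to that line, since 5 of the 7 were well above background on the 4 TT arrays. In TT control cells 4 had a higher mean, with NKX2-1 at 12.28 against 1.96 and TG at 9.13 against 4.87. These 4 include TSHR (1.79 against 1.77), which was not well above background on any array, so that its direction is not read. Of 5 genes of other cell types, COL1A1 (13.80 against 2.29) and PDGFRB (9.63 against 1.99) had the higher mean in Nthy-ori 3-1 control cells, while PECAM1 (2.08 against 5.85) and PTPRC (6.18 against 6.99) had it in TT control cells and COL3A1 was not well above background on any array. The part of these genes in the results was not tested.

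The mimic was given to the follicular line to ask what a rise of the miRNA does there. MAT2B was the member with the largest difference, -2.84 on the log2 scale, and both of its probes were past the fold limit. The other members differed by 0.71 or less at every probe that was well above background on all 8 arrays. With limma, 0 of the 20 members' probes passed an adjusted p of 0.05, as did 0% of all probes, while 10 member probes of 6 genes had an unadjusted p under 0.05 against 14.3% of all probes. When only probes well above background in at least 1 of the groups were fitted, 7831 of 26323 had such a p-value. In bulk RNA of a line, fewer cells that express a gene and less RNA per cell cannot be told apart.

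All values that follow are normalized log2 intensities or their differences. MAT2B probe 1 read 9.32 and 10.70 on the control arrays of replicates 1 and 2, and 6.44 and 7.91 on the pre-miR-375 arrays on the same slides. The groups did not overlap, although the 2 slides differed by 1.38 between controls and by 1.46 between treated arrays. Within the slides the difference was -2.88 and -2.80, and the fit gave -2.84 ± 0.0848 (SE, n = 2 pairs), a 7.15-fold lower level (95% interval -3.20 to -2.47, limma adjusted p = 0.318, which is also the smallest of all probes in this comparison).

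MAT2B probe 2 read 7.24 and 8.46 in control and 4.92 and 5.77 in treated cells, where 1 of the 2 arrays was well above background. Its groups did not overlap either, and its difference was -2.50 ± 0.155, a 5.66-fold lower level (limma adjusted p = 0.318). That size depended on the background treatment, with -1.43 under normexp correction, -1.55 for the uncorrected median signal and -1.60 in the deposited values. MAT2B was thereby the gene of both member probes lower by at least 1 on the log2 scale at an average of at least 6. Of all probes 1.36% passed this limit, and no member passed it in the higher direction, as 0.678% of all probes did. The study chose MAT2B from these arrays with this limit and an adjusted p, so that its passing was known in advance. Under 4 of 12 alternative settings the MAT2B probe 1 call was gained, with limma adjusted p of 0.0234 to 0.0390, over a range of 0.0234 to 0.583 for all of them.

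**Figure D1:**
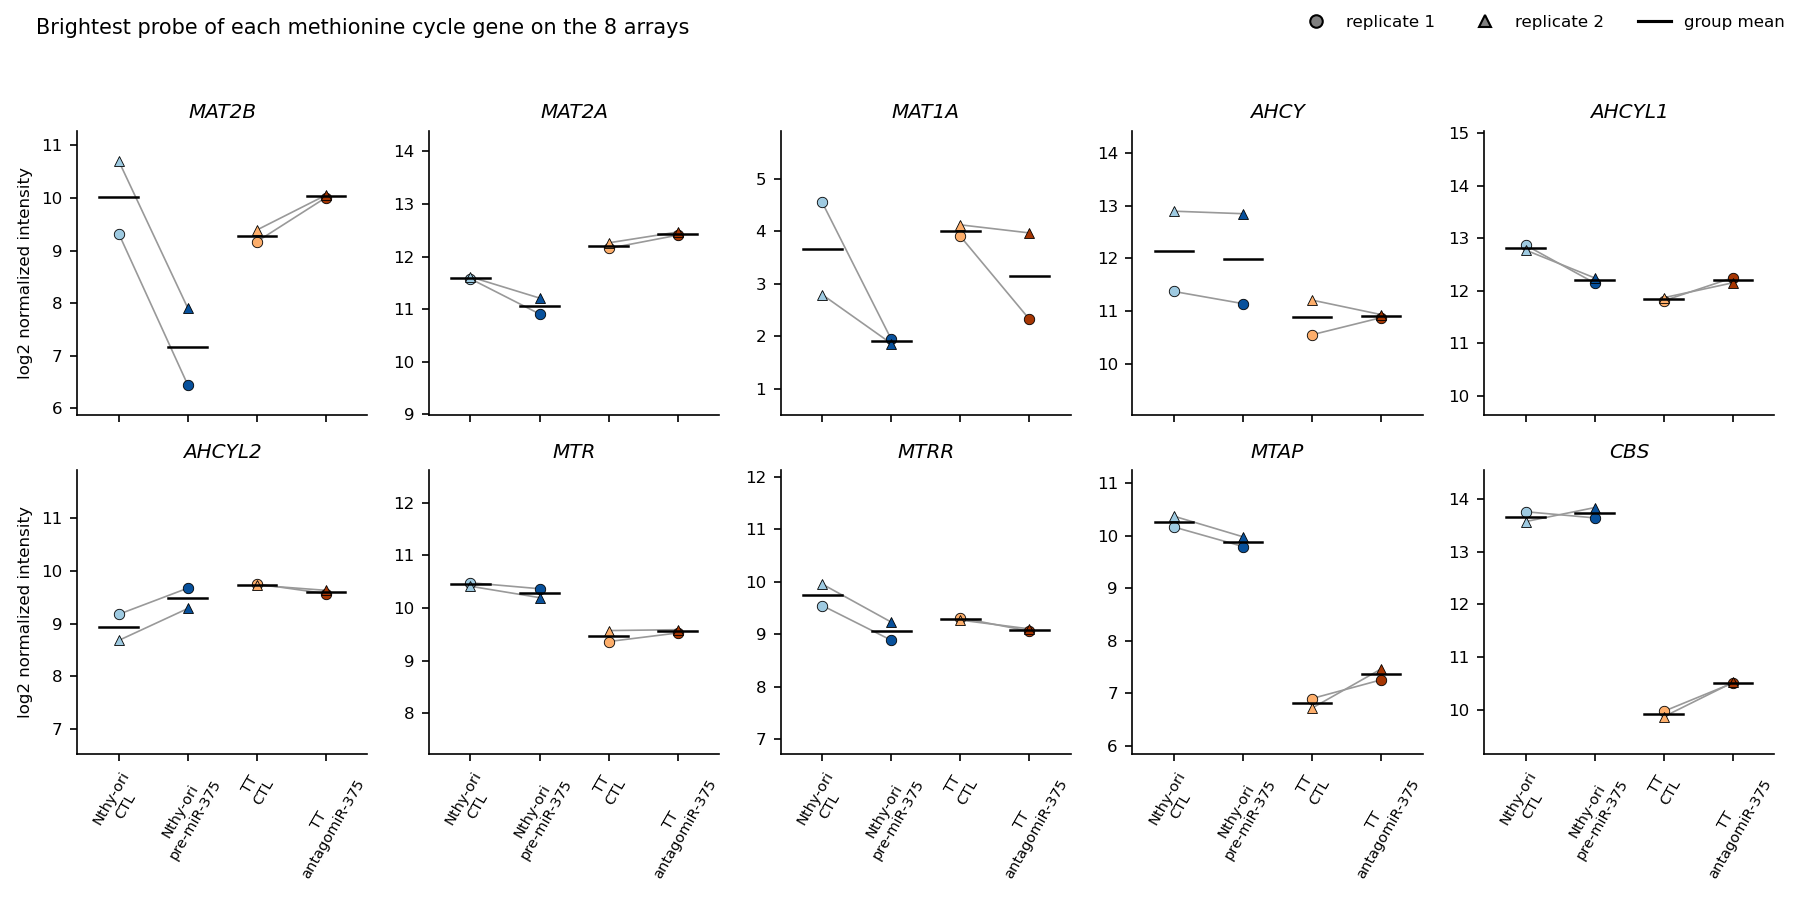
Normalized log2 intensity (y axis, each panel spanning the same range) of the brightest probe of each member on the 8 arrays, by group on the x axis, with circles for replicate 1, triangles for replicate 2, lines joining arrays of a slide and bars for group means. MAT2B read 9.32 and 10.70 in control cells and 6.44 and 7.91 with pre-miR-375, and CBS and MTAP lay lower in both TT groups than in both Nthy-ori 3-1 groups.

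The catalytic subunit MAT2A, at chr2:85771929-85771988 (hg19, plus strand) for its brightest probe, read 11.58 and 11.61 in control cells and 10.91 and 11.21 after pre-miR-375. The groups did not overlap, with a difference of -0.54 ± 0.123 (limma adjusted p = 0.347), and its other probe gave -0.71 ± 0.109 with overlapping groups. MAT1A, the liver form, was not well above background on any of the 4 Nthy-ori 3-1 arrays, so that no fold is given.

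Among the S-adenosylhomocysteine hydrolase family, AHCY itself (chr20:32878156-32878215, minus strand) read 11.37 and 12.90 in control and 11.14 and 12.85 in treated cells. The slides differed by 1.53 and 1.71 for AHCY, and the difference within slides was -0.14 ± 0.103, with overlapping groups (limma adjusted p = 0.612). AHCYL1, known as a binder of the inositol trisphosphate receptor, read 12.87 and 12.78 in control and 12.15 and 12.25 in treated cells at probe 1 (chr1:110564765-110564824, plus strand). The difference was -0.63 ± 0.104 there and -0.67 ± 0.0816 at probe 2, where the groups overlapped (limma adjusted p = 0.320 and 0.318). AHCYL2, its paralog, had the opposite sign, with 9.18 and 8.68 in control and 9.68 and 9.29 in treated cells, without overlap and with a difference of 0.55 ± 0.0887 (limma adjusted p = 0.318).

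For the return of homocysteine to methionine, the reductase MTRR read 9.55 and 9.95 in control and 8.89 and 9.23 in treated cells at its brightest probe (chr5:7900491-7900549, plus strand), a difference of -0.69 ± 0.0829 (limma adjusted p = 0.318) with no overlap. A dimmer MTRR probe, well above background on 1 of the 2 treated arrays, gave -0.63 ± 0.0799 with overlapping groups, and -0.26 with normexp. The 2 others, of other transcripts, were not well above background on any Nthy-ori 3-1 array. Methionine synthase itself, MTR (chr1:237063523-237063582, plus strand), read 10.48 and 10.41 in control and 10.37 and 10.20 in treated cells. Its 3 probes differed by -0.17, -0.00069 and 0.05, and all their 95% intervals included 0.

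The salvage enzyme MTAP read 10.16 and 10.37 in control and 9.79 and 9.98 in treated cells at probe 1 (chr9:21865830-21865889, plus strand), with no overlap and a difference of -0.38 ± 0.0801 (limma adjusted p = 0.336). Probes 2 and 3 gave -0.25 and -0.19. CBS, the entry to cysteine synthesis (chr21:44473319-44473378, minus strand), read 13.76 and 13.58 in control and 13.65 and 13.84 in treated cells, which overlapped and differed by 0.07 ± 0.157.

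Over the 20 member probes the median difference was -0.32, against 0.0016 over all probes. The groups did not overlap for 10 member probes, where 30.1% of all probes had such a gap, and both slides gave the same sign for 16 of them, against 59.7% of all probes.

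**Figure D2:**
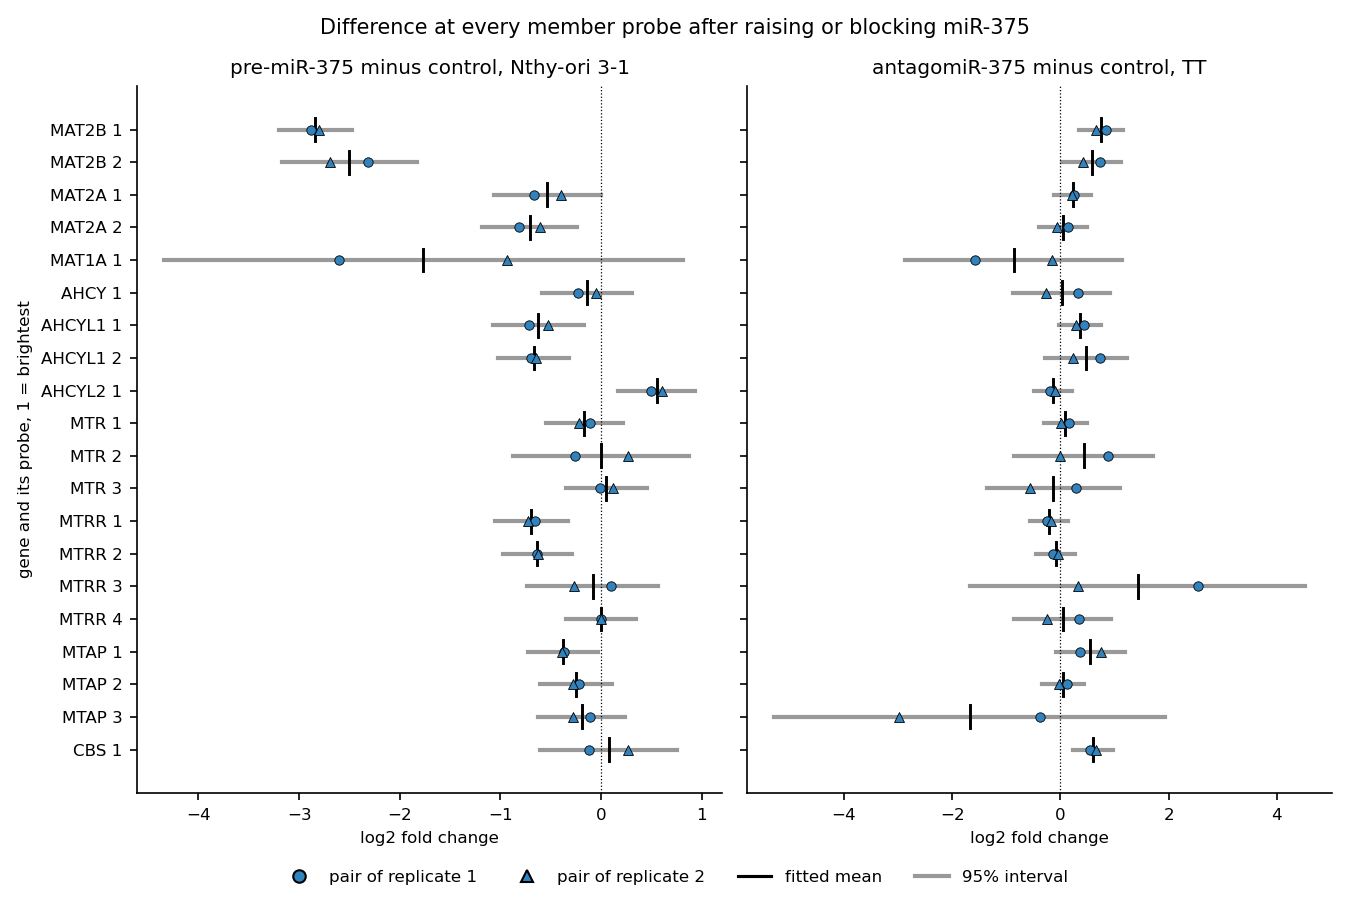
Log2 fold change (x axis) of all 20 member probes (y axis) after the mimic in the follicular line (left) and after the inhibitor in TT cells (right), with symbols for the 2 pairs, black ticks for the fitted mean and grey bars for 95% intervals; MAT1A, MAT2B probe 2, MTRR probes 2, 3 and 4 and MTR probe 3 include arrays not well above background. MAT2B lay at -2.84 and -2.50 on the left and at 0.75 and 0.57 on the right.

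AntagomiR-375 in TT cells asks the converse question, in cells of the tumour type in which the study followed this miRNA. MAT2B and CBS had the largest differences among probes that were well above background on all 8 arrays and did not rest on 1 array, both higher with the inhibitor, and no member probe passed an adjusted p of 0.05 with limma, nor did any other probe (0%). At an unadjusted p under 0.05 there were 3 member probes, of MAT2B and CBS, against 9.73% of all probes. In the fit of probes well above background in at least 1 of the groups, 4429 of 29151 were under it. The smallest adjusted p over all probes was 0.512.

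MAT2B probe 1 read 9.17 and 9.39 in TT control cells and 10.01 and 10.06 after antagomiR-375. The groups did not overlap, the pairs differed by 0.84 and 0.66, and the fit gave 0.75 ± 0.102, a 1.68-fold higher level (95% interval 0.34 to 1.16, limma adjusted p = 0.512). Probe 2 read 6.45 and 6.50 in control and 7.18 and 6.92 in treated cells, also without overlap, and differed by 0.57 ± 0.136, a size that fell to 0.34 in the deposited values and was 0.36 with normexp. MAT2B probe 1 was the only member probe higher by at least 0.6 at an average of at least 6, as 1.18% of all probes were. This limit too was part of the study's choice of MAT2B from these arrays, so that its passing was known in advance. The control arrays of this line had the lower RNA integrity number, and the part of that in the TT results was not tested.

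CBS read 9.97 and 9.86 in control and 10.50 and 10.52 in treated cells, a gap between groups that was wider than within them, with a difference of 0.59 ± 0.0913 (limma adjusted p = 0.512). AHCYL1 read 11.81 and 11.87 in control and 12.25 and 12.15 in treated cells, a difference of 0.36 ± 0.0976 at probe 1. At its probe 2 the difference was 0.48 ± 0.187, with pairs of 0.72 and 0.23. MAT2A differed by 0.23 ± 0.0839 at probe 1, without overlap, and by 0.04 ± 0.108 at probe 2. AHCY differed by 0.02 ± 0.221, AHCYL2 by -0.14 ± 0.0876 and the brightest probe of MTRR by -0.21 ± 0.0876, none with a limma adjusted p under 0.512.

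The 3 MTAP probes disagreed in TT cells. Probe 1 read 6.90 and 6.72 in control and 7.26 and 7.46 in treated cells, a difference of 0.55 ± 0.157, with pairs of 0.36 and 0.74 and with 0.35 under normexp. Probe 2 read 6.58 and 6.75 in control and 6.70 and 6.72 in treated cells, a difference of 0.05 ± 0.0969. Probe 3 read 6.37 and 8.63 in control and 5.98 and 5.65 in treated cells, so that 1 control array lay 2.26 above the other, and the fit gave -1.68 ± 0.892 (95% interval -5.30 to 1.94). The direction held in both pairs, but its size rested on that array, since the pairs gave -0.38 and -2.98. Probe 3 was the only member probe lower by at least 0.6 at an average of at least 6, where 0.644% of all probes were. No statement on MTAP in TT cells follows from these probes together.

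Methionine synthase probes 1 and 2 gave 0.09 and 0.43 in TT cells with intervals that included 0, and the second value rested on 1 pair (0.88, against -0.016 in the other). Probe 3 was well above background on 1 control array and on no treated array, and its pairs had opposite signs (0.30 and -0.55), so that no fold is given. MAT1A was well above background on 1 of 2 arrays in each TT group, and MTRR probe 3 on 1 treated array alone, at 4.48 against 2.26 on the other. The median over member probes was 0.07, against 0.00067 over all probes. Groups did not overlap for 11 member probes, against 42.3% of all probes, and the sign was the same in both pairs for 14, against 61.8%.

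**Figure D3:**
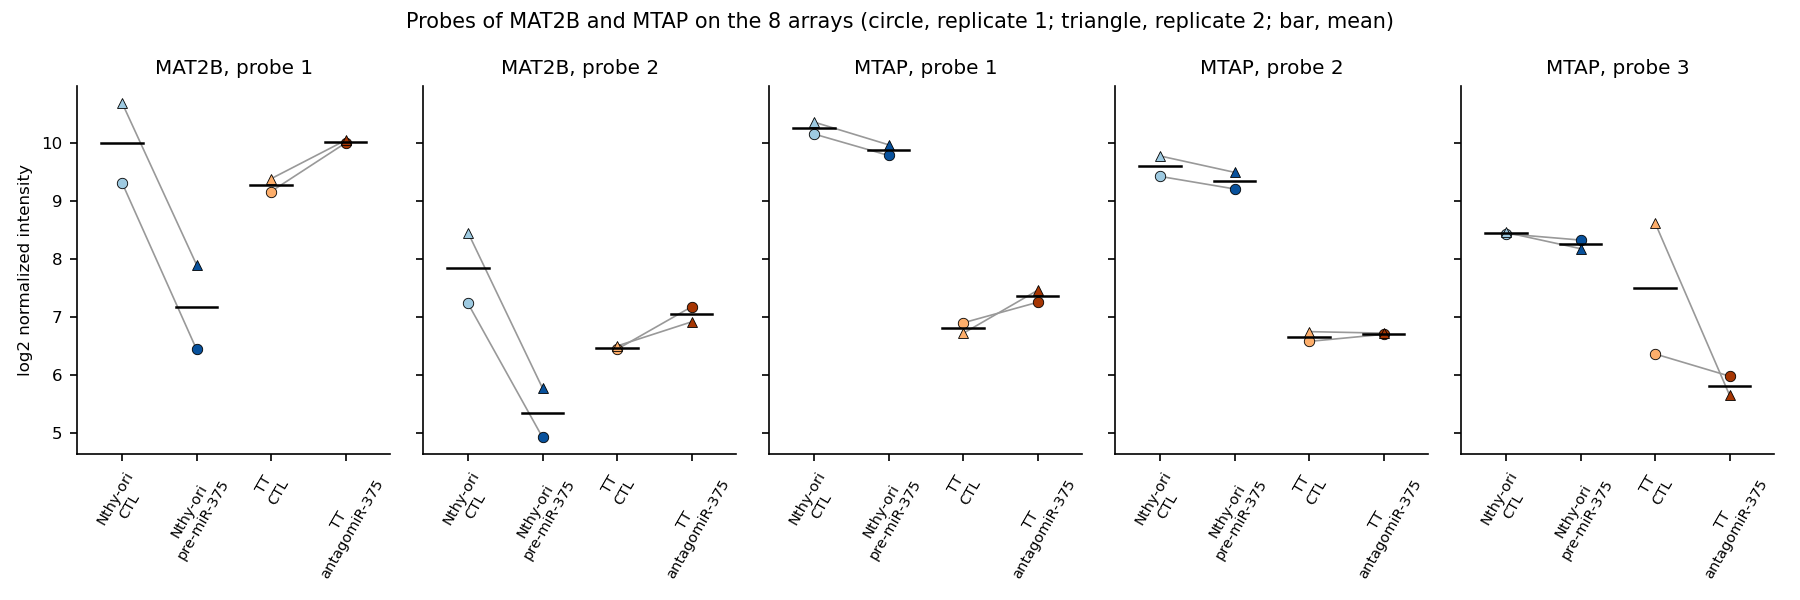
Normalized log2 intensity (y axis) of both MAT2B probes and the 3 MTAP probes by group (x axis), with lines joining arrays of a slide and bars for group means. The MAT2B probes had the same sign in both pairs of each line, while MTAP probe 3 stood at 8.63 on 1 TT control array and at 6.37 on the other.

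The mimic and the inhibitor are opposite treatments in different lines, and the difference between their effects was fitted over all 8 arrays. MAT2B had a difference of 3.59 ± 0.141 at probe 1 and 3.08 ± 0.228 at probe 2, TT minus Nthy-ori 3-1 (unadjusted p = 8.7e-05 and 0.00064, limma adjusted p = 0.149 for both, the smallest of all probes). The probe 2 value was 1.79 with normexp and 1.94 in the deposited values. MAT2B had been chosen by the study from these arrays for opposite changes in the lines, so that its large difference follows in part from that choice. AHCYL1 (0.99 ± 0.153), MAT2A (0.76 ± 0.159), MTAP probe 1 (0.93 ± 0.195) and MTRR probe 1 (0.48 ± 0.126) had the same sign as MAT2B. AHCYL2 had the opposite one (-0.69 ± 0.131), and the limma adjusted p of these other members was 0.162 to 0.243. Unlike MAT2B, MTRR probe 1 was lower after both reagents, by -0.69 with the mimic and -0.21 with the inhibitor. The MTAP probes disagreed here too, with 0.30 ± 0.135 at probe 2 and -1.49 ± 1.04 at probe 3. At an adjusted p of at most 0.05 there were 0 member probes and 0% of all probes. Those with an unadjusted p under 0.05 were 10 member probes of 6 genes, against 16.6% of all probes, dim ones included. The share among probes well above background was not counted for this difference. The median over member probes was 0.53, against 0.0013 over all probes.

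The control cells of the 2 lines were then set side by side. These arrays are also the controls of both comparisons above, and line, slide, control reagent and RNA integrity number change together between them, so that they cannot be told apart. CBS and MTAP were the members with the largest differences, both lower in TT control cells, and AHCYL1 and MTR were lower by a smaller amount. With limma, 6 of 20 member probes, of those 4 genes, passed an adjusted p of 0.05, against 25.7% of all probes. All 6 were lower in TT cells, where 12.8% of all probes were called lower and 12.9% higher. At an unadjusted p under 0.05 there were 10 member probes, against 37.6%.

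CBS read 13.76 and 13.58 in Nthy-ori 3-1 control cells and 9.97 and 9.86 in TT control cells, a difference of -3.75 ± 0.144 (95% interval -4.19 to -3.32) or 13.5-fold (limma adjusted p = 0.0025). MTAP read 10.16 and 10.37 against 6.90 and 6.72 at probe 1, a difference of -3.46 ± 0.159 or 11.0-fold, and -2.94 ± 0.193 at probe 2 (limma adjusted p = 0.0033 and 0.0059). MTAP probe 3 read 8.44 and 8.46 against 6.37 and 8.63, which overlapped and were not called (limma adjusted p = 0.535). The TT arrays treated with antagomiR-375 read 5.98 and 5.65 at that probe.

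AHCYL1 read 12.87 and 12.78 against 11.81 and 11.87, a difference of -0.98 ± 0.125 (limma adjusted p = 0.0197). MTR read 10.48 and 10.41 against 9.36 and 9.57, also -0.98 ± 0.145, and -1.87 ± 0.352 at its second probe (limma adjusted p = 0.0267 and 0.0436). The AHCYL1 call was lost with a replicate block (limma adjusted p = 0.0729) and without any single control array (0.0514 to 0.132), as was that of MTR probe 1 (0.0832 and 0.0760 to 0.140). MTR probe 2 was also lost without any single control array (limma adjusted p of 0.0701 to 0.185). MAT2A differed in the other direction without passing the threshold, 11.58 and 11.61 against 12.15 and 12.26, by 0.61 ± 0.125 (limma adjusted p = 0.0514). AHCYL2 was at 9.18 and 8.68 against 9.76 and 9.73, by 0.81 ± 0.227 (limma adjusted p = 0.0970). With all control arrays kept, MAT2A probe 1 and AHCYL2 were called higher in TT cells with normexp (limma adjusted p = 0.0117 and 0.0316). They were also called with the uncorrected median signal (0.0254 and 0.0216), and MAT2A probe 1 with an intensity trend (0.0196). MAT2A probe 2 differed by 0.91 ± 0.318 (limma adjusted p = 0.150) and was called under no setting. AHCY differed by -1.26 ± 0.662 and MTRR by -0.46 ± 0.199, neither of them called. Both depended on the Nthy-ori 3-1 control arrays, with AHCY at -2.02 without replicate 1 and -0.49 without replicate 2, and MTRR at -0.66 and -0.26.

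For MAT2B the control groups overlapped at probe 1, with 9.32 and 10.70 against 9.17 and 9.39 and a difference of -0.73 ± 0.560 (limma adjusted p = 0.458). They did not overlap at probe 2, with 7.24 and 8.46 against 6.45 and 6.50 and a difference of -1.37 ± 0.494, a 2.59-fold lower level in TT cells (limma adjusted p = 0.157). Without Nthy-ori 3-1 control replicate 1 the difference was -1.42 at probe 1 and -1.99 at probe 2, and without replicate 2 it was -0.043 and -0.76. The limma adjusted p of these fits was 0.0509 and 0.0278, then 0.900 and 0.0716. In them the spread comes from the TT pair (SD 0.0393 at probe 2), while the Nthy-ori 3-1 control arrays, of which 1 was left, differed by 1.23 at that probe, so that no call is drawn from them. Ordered by mean, MAT2B probe 1 was at 10.03 in TT cells with antagomiR-375, 10.01 in Nthy-ori 3-1 control cells, 9.28 in TT control cells and 7.18 where pre-miR-375 was given. The first pair of neighbours differed by less than the spread of the Nthy-ori 3-1 control arrays (SD 0.976), as did the next pair. The order was not the same at probe 2, where Nthy-ori 3-1 control cells came first at 7.85, before TT cells with antagomiR-375 at 7.05, TT control cells at 6.47 and pre-miR-375 at 5.35.

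By fold, 7 member probes of 6 genes were lower in TT control cells by at least 1 at an average of at least 6, against 8.56% of all probes, and 0 were higher, against 7.65%. Groups did not overlap for 16 member probes, against 65.4%, and the median over member probes was -0.97, against -0.05 over all probes. Among probes well above background in at least 1 of the groups, 8 of 17 member probes were called, against 47.4% of such probes. Leaving out TT control replicate 1 or 2 left 0 member calls (and calls at 0% or 3.13% of all probes), with CBS at an adjusted p of 0.0540 or 0.0531 and MTAP at 0.0563 or 0.0557 with limma, and leaving out Nthy-ori 3-1 control replicate 2 left 3 (20.5% of all probes).

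**Figure D4:**
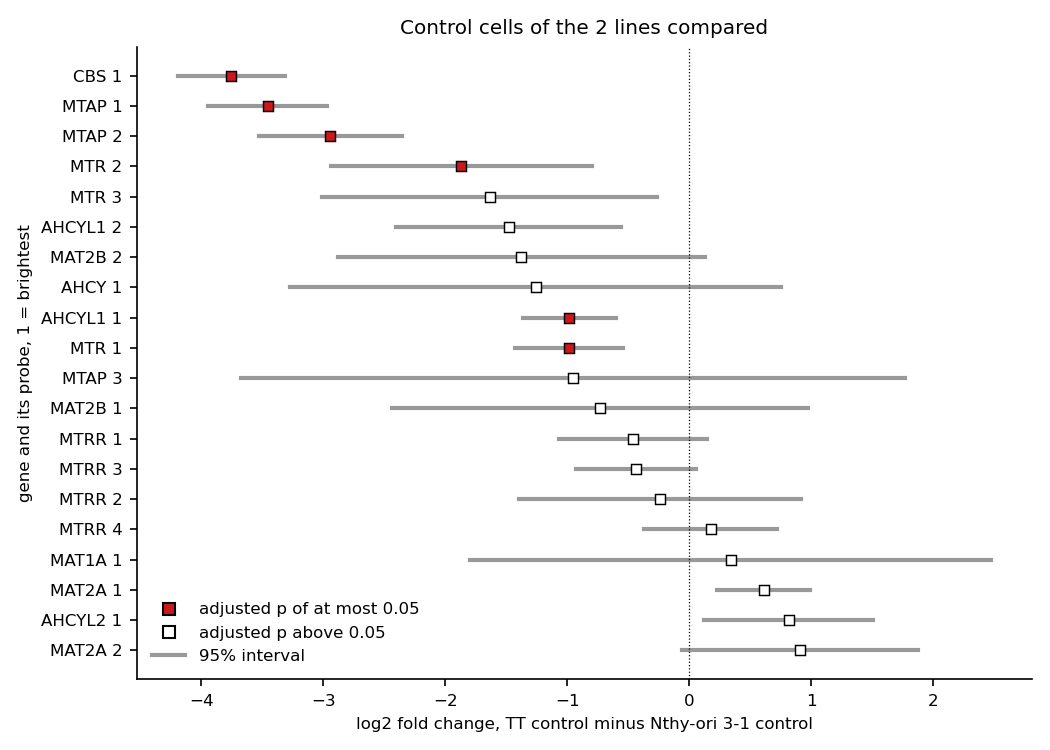
Log2 fold change (x axis) of the 20 member probes (y axis, ordered by value) between TT and Nthy-ori 3-1 control cells, with 95% intervals in grey and filled squares for a limma adjusted p of at most 0.05. The 6 filled squares, CBS at -3.75 the lowest, are all left of 0, and the interval of MAT2B includes 0 at each of its probes.

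The surrounding pathway was read from 59 further genes in 5 lists, of which 53 had their brightest probe well above background on all 8 arrays. After pre-miR-375, limma called 0 of the 59 in either direction, and at an unadjusted p under 0.05 there were 17 lower and 3 higher, against 14.3% of all probes in either direction. When only probes well above background in at least 1 of the groups were fitted, 7831 of 26323 were under it in either direction. Past the fold limit 2 were lower, against 1.36% of all probes. ENOPH1, the enolase-phosphatase of the salvage route that MTAP opens, read 10.06 and 10.62 in control and 8.45 and 8.95 in treated cells, a difference of -1.64 ± 0.0819 (limma adjusted p = 0.318). TYMS, thymidylate synthase, read 14.36 and 14.67 in control and 12.88 and 13.26 in treated cells, a difference of -1.44 ± 0.0838. Neither overlapped, and none of the other list genes reached that limit.

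After antagomiR-375 in TT cells limma again called 0 of the 59, with 1 lower and 7 higher at an unadjusted p under 0.05, against 9.73% of all probes in either direction. In the fit of probes well above background in at least 1 of the groups, 4429 of 29151 were under it. Past the fold limit 4 were higher, against 1.18% of all probes. They were the cystine transporter SLC7A11 (1.06 ± 0.112), the large neutral amino acid transporter SLC7A5 (0.92 ± 0.0858), and the methyltransferases ICMT, of prenylated proteins (1.03 ± 0.206), and NNMT, of nicotinamide (0.86 ± 0.0827). Each had a limma adjusted p of 0.512. SLC7A11 read 8.64 and 8.46 in control and 9.58 and 9.63 in treated cells, and SLC7A5 read 8.10 and 8.04 in control and 8.99 and 8.99 in treated cells, neither with overlap.

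Between the control cells limma called 22 of the 59 genes lower and 7 higher in TT cells, against 12.8% and 12.9% of all probes. Among probes well above background in at least 1 of the groups, as most list genes were, 47.4% were called in either direction. As for the members, these calls compare lines on separate slides. Of the folate cycle genes, 9 of 16 were lower and 0 higher, among them the folate carrier SLC19A1 (-4.08 ± 0.119) and the serine hydroxymethyltransferase SHMT1 (-3.40 ± 0.183). CTH, which follows CBS in cysteine synthesis, read 8.90 and 8.95 in Nthy-ori 3-1 and 3.77 and 4.14 in TT control cells, where 1 of the 2 arrays was well above background (-4.97 ± 0.189). It was 1 of 4 genes called lower of the 10 in its list, with 0 higher.

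In the salvage and polyamine list 3 were lower and 2 higher of 10, with MRI1, which acts on the product of MTAP, at -2.45 ± 0.289. In the transport and glutathione list 1 was lower (SLC7A5, -2.96 ± 0.169) and 2 were higher of 8, with the amino acid transporter SLC43A1 at 3.74 ± 0.178. Of 15 methyltransferases, 5 were lower and 3 higher, with NNMT at -7.14 ± 0.252 and PEMT, which methylates phosphatidylethanolamine, at 2.34 ± 0.162. The median over the 59 genes was -0.64.

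**Figure D5:**
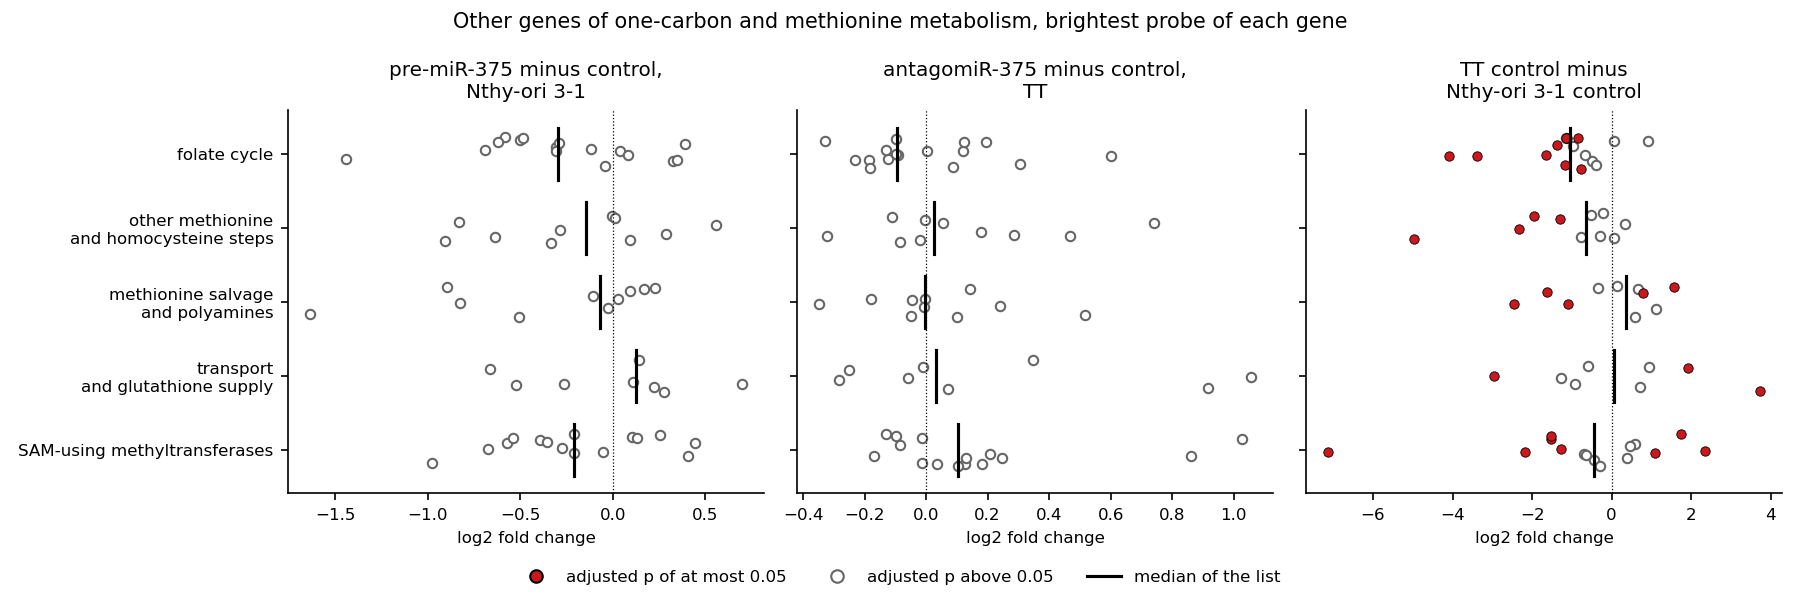
Log2 fold change (x axis, its own scale in each panel) of 59 genes in 5 lists (y axis), 1 point per gene, in the 3 comparisons, with filled points for a limma adjusted p of at most 0.05 and bars for list medians. Points are filled in the comparison of control cells alone, with 9 of 16 folate cycle genes filled and all 9 left of 0.

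Of the 16975 genes whose brightest probe was well above background on all 8 arrays, the 5 with a pattern most like that of MAT2B were taken by the root mean square difference of centred log2 values over the 8 arrays. They were SFRP1, a secreted WNT inhibitor (0.386), the chaperone HSP90AA1 (0.389), HSP90AA2 (0.402), a near copy whose probe may also read HSP90AA1 transcripts, and 2 probes that the files give no gene name (0.409 and 0.419). The median over these genes was 1.39, and the other MAT2B probe stood at 0.503. Of the other members, MAT2A was nearest to MAT2B at 0.946 and CBS farthest at 2.55. The 8 values share slides, lines and treatments, and likeness is given as a description.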

How the data were processed

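RNA of 2 lines was measured on 8 arrays. Per the labels and the file headers, the authors deposited for each array the spot intensity from Feature Extraction 10.10.1.1 (background subtracted, not normalized between arrays; array design on hg19), and 1 table of log2 values. The processed intensity was taken to log2, control and outlier spots (341 to 428 per array) were left out, repeat spots were averaged, and quantile normalization was run over the 8 arrays together. Each line was fitted with limma 3.58.1 in R 4.3.3, with the replicate number, shared by the arrays of a slide, as a block; replicate differences correlated between control and treated arrays at 0.785 (Nthy-ori 3-1) and 0.330 (TT). The control comparison had no block. P-values were adjusted by Benjamini-Hochberg over all probes, and called means at most 0.05. Fold limits on the log2 scale were 1 in Nthy-ori 3-1 cells and between lines and 0.6 in TT cells, at an average of at least 6. The brightest probe over the 8 arrays stood for a gene and is numbered 1. Every member probe was reported. List genes were named when the fitted mean passed the limits with the same sign in both pairs, or passed 2 between lines, at most 8 per comparison. The members and the lists were chosen with earlier results of these data known, MAT2B being among the genes the study selected from these arrays. The steps were run on simulated data with a smaller spread than most probes here and no slide differences. That milder setting does not show how the paired fits behave on these arrays. Alternatives were other normalizations, background corrections, the deposited log2 table, dim probes left out, other fits and arrays left out. All 10 member symbols matched RefSeq gene names, and the precision is limited by the number of arrays.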

Additional observations from a re-analysis of the deposited data

How the results depend on the processing

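With or without the replicate block 0 probes were called in either line or in the difference between effects; without it the SE of MAT2B after pre-miR-375 was 0.821 in place of 0.0848 (adjusted p = 0.577) and in TT cells 0.117 in place of 0.102 (0.408). A replicate block in the comparison of control cells, whose numbers do not share slides across lines, gave 4 member calls in place of 6, without AHCYL1 (adjusted p = 0.0729) and MTR probe 1 (0.0832). For MAT2B after pre-miR-375 the call was gained with normexp (-2.30), the uncorrected median signal (-2.38), the deposited values (-2.39) and without dim probes (-2.84), where 3, 1, 1 and 2 member probes were called in place of 0, as were 3.08%, 1.02%, 1.14% and 3.80% of all probes. For the difference between effects, normexp gave 3.07 with 7 member calls (5.13% of all probes) and the deposited values 3.15 with 3 (3.32%). Leaving out a control array gave 0 to 6 member calls between lines and -1.42 to -0.043 for MAT2B. Counting all probes of a gene gave 1 list gene probe lower in TT cells in place of 0. Near 0, signs turned for CBS in Nthy-ori 3-1 cells (-0.030 by the 75th percentile, -0.0056 by the median signal, -0.12 to 0.27 over single pairs), AHCY in TT cells (-0.28 to 0.32 over single pairs) and MAT1A between lines (-0.0074 by the median signal, -0.54 to 1.22 without single arrays). Between treated arrays of the lines, MAT2B was 2.86, AHCYL1 0.0045 and MTRR 0.022 higher in TT cells. The cause of these changes was not tested. Signal over background limits MAT1A, MTRR probes 2, 3 and 4, MTR probe 3 and MAT2B probe 2, which ranged from -2.69 to -1.43 after pre-miR-375.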
